A study of Homo sapiens with 4 samples.

Results

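TRIB3, PSAT1, VLDLR, MANF and HYOU1 are genes of the cell's stress responses that moved in opposite directions in U2OS cells given BRPF3 siRNA: TRIB3, PSAT1 and VLDLR were higher and MANF and HYOU1 lower than in cells given control siRNA. The 5 genes were taken by name, with every probe set that the platform annotation assigns to them, which gave 6 probe sets, 2 of them for HYOU1. They are 5 of 14884 genes named on the array, and all 5 were among the 10696 genes bright enough to be tested. The genes were chosen by their log2 differences between BRPF3 siRNA and control siRNA on these arrays, so those differences are given as a description with no test.

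U2OS is an established human osteosarcoma line. Cells of both groups were transfected for 48 hours at 50 nM with a lipid reagent, with siRNA directed at BRPF3 (2 arrays) or with a scramble siRNA as the negative control (2 arrays), and no other agent or genotype is named. BRPF3 is a scaffold protein of histone acetyltransferase complexes. The annotation used names no probe set for BRPF3, so its depletion was not checked on these arrays. As 1 siRNA condition was compared with 1 control, an effect of losing BRPF3 and another effect of the BRPF3 siRNA cannot be told apart. Values are RMA values on the log2 scale, and the labels call the replicates of a group biological without saying whether their cultures were grown apart, so every error and p reflects the scatter of these arrays alone. The number of arrays limits the precision. RUNX2, SPP1 and VIM, which mark osteoblast and mesenchymal cells, lay above the intensity bound of 4.59, SP7 lay at it (4.57 after BRPF3 siRNA and 4.75 after control siRNA) and IBSP lay under it. Among markers of other lineages EPCAM stood at 8.18 after BRPF3 siRNA and 7.92 after control siRNA (adjusted p = 0.0754), KRT14 at 5.16 and 5.33 (adjusted p = 0.531), and KRT5 and CD14 lay under the bound. EPCAM passed after quantile normalization, with an intensity trend and with the 75th percentile filter, and its part in the results was not tested. In bulk RNA, fewer cells with a transcript and less of it per cell cannot be told apart.

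Proteins that enter the endoplasmic reticulum (ER) are folded there by chaperones, and an excess of unfolded protein is sensed by ATF6, by the kinase ERN1 (IRE1) and by the kinase EIF2AK3 (PERK). ATF6 and the factor XBP1, which ERN1 activates by splicing, induce chaperones and folding enzymes such as HYOU1 and MANF. EIF2AK3 belongs instead, with the kinases that sense amino acid lack, viral RNA and heme lack, to the integrated stress response: all of them phosphorylate the translation factor eIF2, which slows protein synthesis and favours translation of the factor ATF4. ATF4 then induces genes of amino acid supply and feedback, among them PSAT1 and TRIB3. The arrays measure transcripts, not eIF2 phosphorylation, splicing of XBP1 or protein.

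TRIB3 is a pseudokinase of the Tribbles family, induced by ATF4 and known to restrain ATF4 activity in return. Its values were 7.72 and 7.71 on the BRPF3 siRNA arrays, against 7.40 and 7.28 on the control arrays. The groups did not overlap, with a gap of 0.31 between the nearest arrays, and the difference was 0.38 ± 0.08 (log2, with the moderated SE of the limma fit and n = 2 per group), a level 1.30-fold higher. PSAT1 catalyses the transamination step of serine synthesis. It stood at 11.06 and 11.12 after BRPF3 siRNA, against 10.72 and 10.66 after control siRNA, a difference of 0.40 ± 0.08 or 1.32-fold. The gap between groups, 0.35, was several times the distance between arrays of 1 group. VLDLR, a receptor for lipoproteins and reelin and a known target of ATF4, had the largest difference of the 5 genes and the widest spread. Its values were 8.30 and 8.56 on the BRPF3 siRNA arrays, against 7.68 and 7.84 on the control arrays. The lower BRPF3 siRNA array still lay 0.46 above the higher control array, and the groups differed by 0.67 ± 0.12 (1.59-fold).

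MANF is a small ER protein that binds the chaperone HSPA5 and can be secreted under stress. Its values were 6.73 and 6.68 after BRPF3 siRNA, against 7.19 and 7.35 after control siRNA. Both BRPF3 siRNA arrays were lower than both control arrays by at least 0.47, and the difference was -0.57 ± 0.09, a level 0.676 times that of control cells. HYOU1 is a large ER member of the HSP70 superfamily that acts as nucleotide exchange factor for HSPA5. Its brighter probe set, which stands for the gene in the fit, read 9.88 and 9.86 after BRPF3 siRNA, against 10.23 and 10.28 after control siRNA, a difference of -0.39 ± 0.08 (0.764 times control). The other probe set of HYOU1 was dim, at 5.33 and 5.38 after BRPF3 siRNA, against 5.47 and 5.46 after control siRNA. It was lower by 0.11 on the log2 scale (difference -0.11), again without overlap. With the mean of both probe sets the difference of HYOU1 was -0.25, and it was -0.30 after quantile normalization and -0.31 after cyclic loess normalization.

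**Figure D1:**
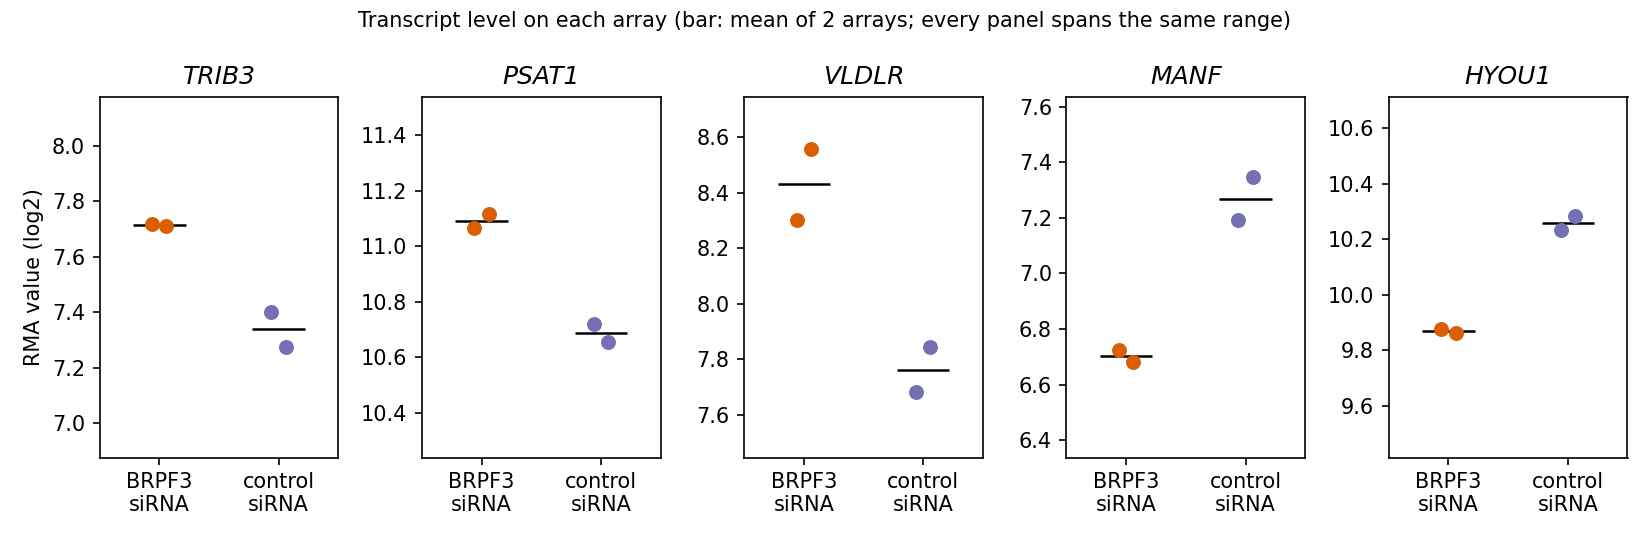
RMA values (log2) of the 5 genes on the 2 BRPF3 siRNA arrays and the 2 control siRNA arrays, each point 1 array and each bar the mean of 2, in panels that span the same range. The groups do not overlap in any panel; TRIB3, PSAT1 and VLDLR are higher after BRPF3 siRNA (by 0.38, 0.40 and 0.67) and MANF and HYOU1 lower (differences -0.57 and -0.39).

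Non-overlapping groups were common in this experiment, found for 63.2% of all genes tested, so nothing is read from their presence in all 5 genes. Differences of these sizes were not rare either: 1.38% of the tested genes were at least as high above control as VLDLR, 6.10% as PSAT1 and 7.15% as TRIB3, while 3.36% were at least as far below control as MANF and 8.87% as HYOU1. Within replicate number 1 and within number 2 the differences were 0.32 and 0.43 for TRIB3, 0.35 and 0.46 for PSAT1, 0.62 and 0.72 for VLDLR, -0.47 and -0.67 for MANF, and -0.36 and -0.42 for HYOU1. Each gene thus had the larger size under number 2.

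Profiles over the 4 arrays, each centred on its own mean, were compared by their root mean square distance in log2 units. TRIB3 and PSAT1 lay 0.034 apart and MANF and HYOU1 0.0967 apart, while VLDLR lay 0.201 from TRIB3 and 0.17 from PSAT1. The nearest genes were RASGRF1, PANX2 and RPL23AP53 to TRIB3 (0.00984 to 0.0162), FSTL3, ZNF607 and SMAD3 to PSAT1 (0.00294 to 0.00791), and CNTNAP3, OLFML3 and TAPBPL to VLDLR (0.0335 to 0.034). To MANF they were SARNP, SNRPB2 and COX17 (0.0119 to 0.0177), and to HYOU1 NUDT5, FBXO3 and NUDC (0.00478 to 0.00747). Such likeness was not sparse: within a distance of 0.1 lay 923 genes for TRIB3, 916 for PSAT1, 92 for VLDLR, 396 for MANF and 1417 for HYOU1, of 10695 compared.

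The promoters are shown because the responses above act through known DNA elements: ATF6 acts with the CCAAT-binding factor NF-Y at the ER stress response elements ERSE and ERSE-II, XBP1 also at the UPRE, and ATF4 with C/EBP partners at the CARE. All 5 genes had a RefSeq promoter window (GRCh38.p14), which runs from 250 bases before to 50 after the annotated start. Both strands were searched for the ERSE (CCAAT and CCACG with 9 bases of any kind between them), the ERSE-II (ATTGG and CCACG with 1 base between them), the UPRE core TGACGTGG and the CARE core TGATGNAA. Of 27305 gene promoters, counted by their first listed start, 0.0806% held an ERSE, 0.0549% an ERSE-II, 0.795% a UPRE core and 3.67% a CARE core. HYOU1 held the ERSE-II 2 times, beginning at -185 and -79 from the start, and it was the 1 promoter of the 27305 with more than 1 such match. A UPRE core at -188 overlapped the distal ERSE-II. The 250 bases before the HYOU1 start (chr11:119057206-119057455, minus strand) follow, with these matches in capitals.
HYOU1: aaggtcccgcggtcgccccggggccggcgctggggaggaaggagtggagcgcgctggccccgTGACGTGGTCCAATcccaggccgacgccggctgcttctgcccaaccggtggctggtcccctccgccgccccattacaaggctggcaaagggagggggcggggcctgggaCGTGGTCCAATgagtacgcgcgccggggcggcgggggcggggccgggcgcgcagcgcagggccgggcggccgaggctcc

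TRIB3 (3 listed starts), PSAT1, VLDLR and MANF held none of these 4 motifs in their windows, which says only that these letters are not there. A shorter feature, chosen after the sequences were seen, did not follow the direction of change: the box CCAAT, on either strand, occurred 3 times in each of the windows of MANF, HYOU1 and PSAT1 and 0 times in those of TRIB3 and VLDLR. Of all promoters 3.42% held at least 3. The upstream 250 bases of MANF (chr3:51385041-51385290, plus strand) and of PSAT1 (chr9:78296875-78297124, plus strand) are printed with the box in capitals, a lower and a higher gene that share it.
MANF: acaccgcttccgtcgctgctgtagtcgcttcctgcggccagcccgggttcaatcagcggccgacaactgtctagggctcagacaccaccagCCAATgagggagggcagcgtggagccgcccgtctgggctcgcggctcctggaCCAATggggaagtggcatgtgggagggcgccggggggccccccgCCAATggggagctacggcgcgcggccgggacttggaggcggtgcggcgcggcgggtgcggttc
PSAT1: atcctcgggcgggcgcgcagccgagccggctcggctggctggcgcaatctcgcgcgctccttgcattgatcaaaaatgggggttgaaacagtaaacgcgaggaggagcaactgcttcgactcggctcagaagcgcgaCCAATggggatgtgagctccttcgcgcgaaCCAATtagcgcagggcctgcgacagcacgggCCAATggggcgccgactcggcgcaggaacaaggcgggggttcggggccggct

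The wider integrated stress program was compared through 45 listed genes, chosen with earlier results of these data known, of which 24 were named and all 24 bright enough to be tested. Without TRIB3, PSAT1 and VLDLR there were 21, of which 5 rose, 0 fell and 16 did not pass (limma, Benjamini-Hochberg adjusted p under 0.05, here and for all calls). Over all genes tested 6.32% rose and 9.44% fell, 15.8% in all. At an unadjusted p under 0.05, 10 of the 21 were higher and 0 lower. Of all 10696 genes tested 1587 were higher and 2119 lower at that cut, the background for every such count below. The 21 genes had a median difference of 0.22, against -0.03 for all genes tested. Above 0 lay 17 of them, and 4801 of all 10696 genes.

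FGF21, a stress hormone induced by ATF4, and SESN2 had the highest differences of the 21 genes. FGF21 read 6.54 and 6.86 after BRPF3 siRNA, against 5.62 and 5.59 after control siRNA, 2.14-fold higher (1.09 ± 0.12, adjusted p = 0.00994). SESN2, a sensor that restrains the kinase complex mTORC1 when leucine is scarce and also a target of p53, stood at 9.40 and 9.50 after BRPF3 siRNA, against 8.46 and 8.35 after control siRNA. It rose 2.06-fold (1.04 ± 0.09, adjusted p = 0.00756), and both differences were larger in size than those of the 5 chosen genes. The order of FGF21 and SESN2 turned with the setting: after either normalization FGF21 stood at 1.10 and SESN2 at 1.11. JDP2, a bZIP factor that dimerises with ATF family members, rose by 0.63 ± 0.13 (adjusted p = 0.0299), with control arrays at 7.34 and 7.67. The bZIP factor ATF5 rose by 0.45 ± 0.08 (adjusted p = 0.0250) and CBS, the first enzyme of transsulfuration, by 0.51 ± 0.08 (adjusted p = 0.0195).

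ATF4 itself was at 10.78 and 10.83 after BRPF3 siRNA, against 10.66 and 10.59 after control siRNA, a difference of 0.18 ± 0.08 that did not pass (adjusted p = 0.175, and 0.0296 with an intensity trend). ATF4 is controlled mostly through its translation, which these arrays do not measure. DDIT3 (CHOP), the partner with which ATF4 induces TRIB3, differed by 0.15 ± 0.13 (adjusted p = 0.471) with overlapping groups, and ATF3 by 0.05 ± 0.15 (adjusted p = 0.830). DDIT4, an inhibitor of mTORC1, differed by 0.53 ± 0.26 (adjusted p = 0.208). Its BRPF3 siRNA arrays lay far apart, at 7.78 and 8.54, and overlapped the control arrays at 7.47 and 7.80. Without BRPF3 siRNA replicate 1 DDIT4 passed at 0.91 (adjusted p = 0.0459), as did the growth factor GDF15 at 0.72 (adjusted p = 0.0391), where the lone BRPF3 siRNA array is assumed to vary like the control arrays. STC2 (0.45 ± 0.12) and ASNS, the asparagine synthetase (0.32 ± 0.08), lay just outside the threshold, with adjusted p of 0.0544 and 0.0545. ASNS passed after either normalization (0.38 and 0.39), and STC2 passed with the replicate number as a block (adjusted p = 0.0340). With an intensity trend ASNS, STC2, GDF15 and PHGDH passed beside ATF4. On all arrays GDF15 (0.47 ± 0.17, adjusted p = 0.117) and VEGFA (0.22 ± 0.08, adjusted p = 0.122) did not pass.

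Serine is made from a glycolytic intermediate by PHGDH, PSAT1 and PSPH in turn. PHGDH differed by 0.19 ± 0.08 (adjusted p = 0.146), with 9.84 and 9.85 after BRPF3 siRNA and 9.66 and 9.66 after control siRNA. PSPH lay the other way, at -0.17 ± 0.10 (adjusted p = 0.264), as did SHMT2, which turns serine to glycine in mitochondria (-0.09 ± 0.08, adjusted p = 0.422). PHGDH passed with the intensity trend (adjusted p = 0.0375), and on the deposited values in the fit without it none of these 3 enzymes passed. Under quantile normalization PSAT1 differed by 0.52 and under cyclic loess by 0.50. CHAC1, MTHFD2, SLC7A11 and 18 other listed stress genes have no named probe set and were not analysed here.

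**Figure D2:**
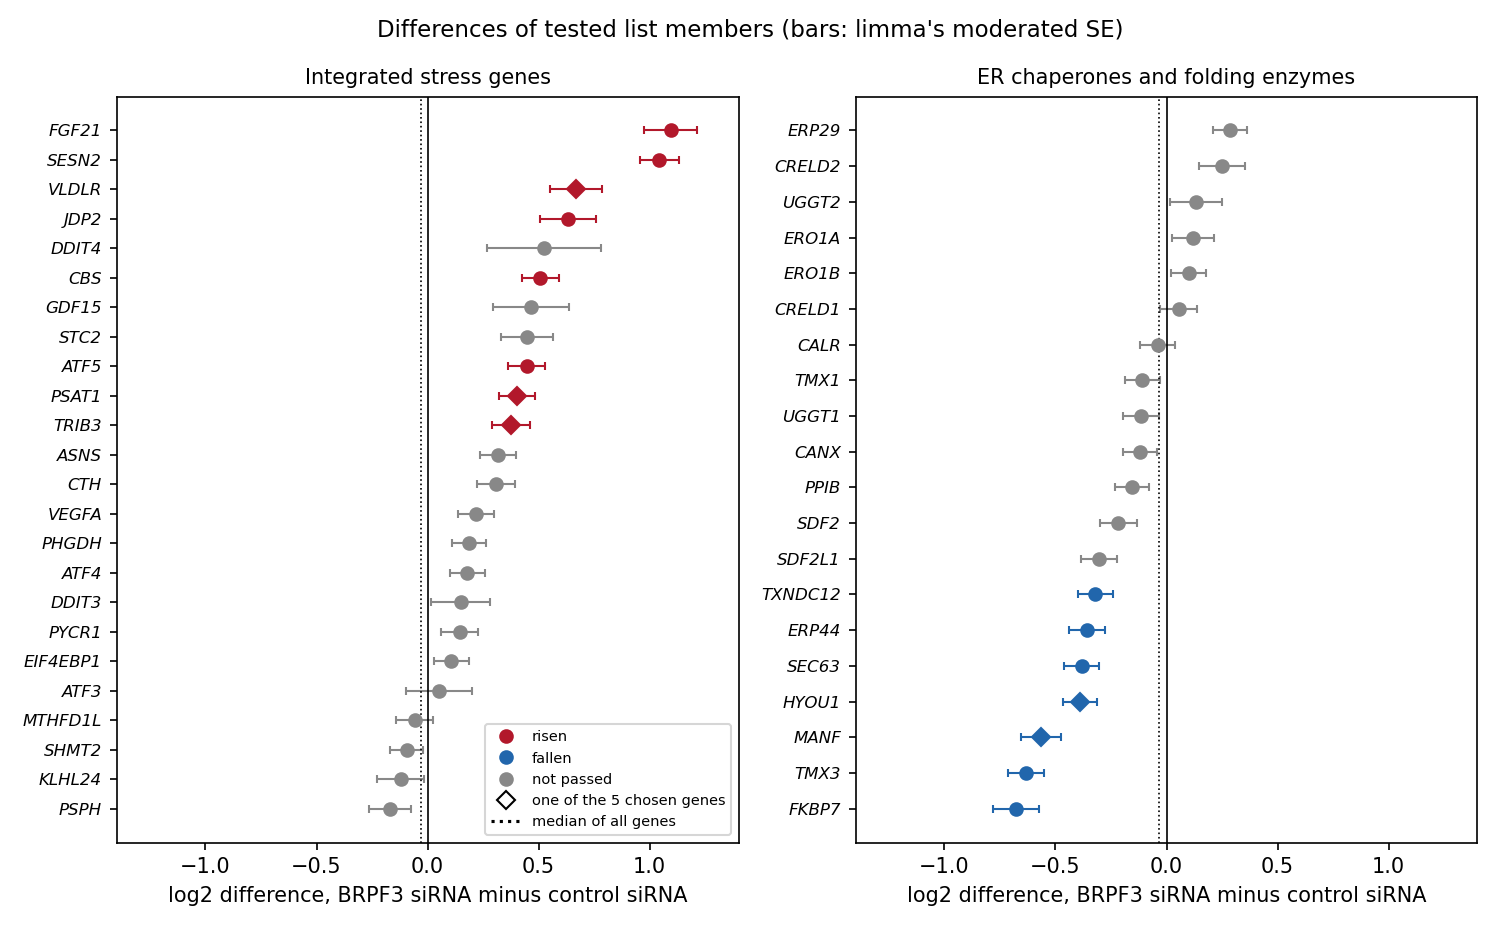
Log2 differences, BRPF3 siRNA minus control siRNA, of the 24 tested integrated stress genes (left) and the 20 tested ER chaperones and folding enzymes (right), with the moderated SE of the limma fit as bars and n = 2 per group. Red points rose, blue points fell, grey points did not pass, and diamonds are the 5 chosen genes; the risen genes reach 1.09 (FGF21) and the fallen ones -0.68 (FKBP7).

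Among 40 listed ER chaperones and folding enzymes 20 were tested, 1 (CDNF, the paralog of MANF) lay under the intensity bound with a mean of 4.16, and 19 were not analysed here, among them HSPA5, HSP90B1, SIL1 and DNAJB9. Without MANF and HYOU1 there were 18, of which 0 rose, 5 fell and 13 did not pass in limma's test. The shares over all genes tested were 6.32% risen and 9.44% fallen. At an unadjusted p under 0.05, 1 was higher and 7 were lower, against 1587 and 2119 of all 10696 genes tested. The median of the 18 was -0.12 on the deposited values, -0.01 after quantile normalization and -0.03 after cyclic loess. After either normalization 3 of the 18 fell and 1 rose, ERP29. Among all 10696 genes 718 fell and 764 rose after quantile normalization, and 736 fell and 766 rose after cyclic loess.

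FKBP7, a prolyl isomerase of the ER, read 5.82 and 5.64 after BRPF3 siRNA, against 6.33 and 6.49 after control siRNA. It fell by 0.68 ± 0.10 on the log2 scale (difference -0.68, adjusted p = 0.0180). TMX3, a membrane-bound disulfide isomerase, stood at 7.58 and 7.52 after BRPF3 siRNA, against 8.22 and 8.15 after control siRNA (-0.63 ± 0.08, adjusted p = 0.0137). Both kept their call and their size under both normalizations, at -0.68 and -0.67 for FKBP7 and -0.58 for TMX3. SEC63, which couples the translocation channel to HSPA5, fell too (-0.38 ± 0.08, adjusted p = 0.0307), and it was -0.32 and -0.31 after the normalizations. ERP44, which holds unfinished disulfide-linked proteins back from secretion (-0.36 ± 0.08, adjusted p = 0.0403), and the thioredoxin-like TXNDC12 (-0.32 ± 0.08, adjusted p = 0.0474) fell on the deposited values and did not pass after either normalization, nor did TXNDC12 with the replicate number as a block.

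The lectin chaperones CALR (-0.04 ± 0.08, adjusted p = 0.751) and CANX (-0.12 ± 0.08, adjusted p = 0.327) did not pass. CALR read 12.32 and 12.30 after BRPF3 siRNA, against 12.32 and 12.37 after control siRNA. SDF2L1, a partner of HSPA5 cochaperones, differed by -0.30 ± 0.08 (adjusted p = 0.0601), and CRELD2, an ER stress gene, by 0.25 ± 0.10 (adjusted p = 0.150). The highest of the 18 was ERP29 at 0.29 ± 0.08 (adjusted p = 0.0590). Of the 18 genes 6 lay above 0 and 12 below, so ER chaperones other than MANF and HYOU1 were found on both sides of 0. Among all genes tested 4801 lay above 0 and 5895 below.

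Of the 20 tested ER genes 6 held an ERSE or ERSE-II in their promoter window, HYOU1 among them, and the other 5 did not pass. SDF2L1 of these 5 passed as a fall with the intensity trend (adjusted p = 0.0214) and with the 75th percentile filter (adjusted p = 0.0196). The sites of these 5 are shown beside the differences just given, in capitals and with a few flanking bases, read along the strand of the gene, on which CGTGG is the reverse complement of CCACG. SDF2L1 (chr22:21642105-21642133) held the ERSE-II, and CALR (chr19:12938379-12938407), CANX (chr5:179698773-179698801), CRELD2 (chr22:49918549-49918577) and ERO1B (chr1:236282178-236282206, difference 0.10 ± 0.08, adjusted p = 0.428) held the ERSE.
SDF2L1: cctcggaagCGTGGACCAATcaaaaccct
CALR: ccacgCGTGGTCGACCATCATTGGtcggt
CANX: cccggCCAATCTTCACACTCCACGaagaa
CRELD2: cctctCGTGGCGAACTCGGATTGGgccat
ERO1B: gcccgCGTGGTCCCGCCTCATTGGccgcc

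Of the 24 tested stress genes 19 had a promoter window, and 4 of these held a CARE core: FGF21 (chr19:48755460-48755487), ASNS (chr7:97872459-97872486), MTHFD1L and ATF3. FGF21 was the 1 of these 4 that passed the test. MTHFD1L differed by -0.06 ± 0.08 (adjusted p = 0.664). The sites of FGF21, on the reverse strand, and of ASNS, just outside the threshold, are shown.
FGF21: aacaccaggaTTGCATCAgggaggagga
ASNS: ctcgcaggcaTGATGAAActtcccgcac

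Most genes upstream of these programs did not pass. XBP1 differed by -0.01 ± 0.08 (adjusted p = 0.957), ERN1 by -0.18 ± 0.10 (adjusted p = 0.232), ATF6 by -0.14 ± 0.09 (adjusted p = 0.291) and EIF2AK3 by 0.06 ± 0.18 (adjusted p = 0.842). ATF6B, the paralog of ATF6, was the exception among 8 tested sensors and factors, of which 1 rose and 0 fell (1 higher and 1 lower at an unadjusted p under 0.05). It read 10.84 and 10.89 after BRPF3 siRNA, against 10.32 and 10.17 after control siRNA, and rose 1.54-fold (0.62 ± 0.09, adjusted p = 0.0159). Of 6 tested genes of eIF2 kinases and their regulators IMPACT, an inhibitor of GCN1-dependent activation of EIF2AK4, rose by 0.36 ± 0.09 (adjusted p = 0.0453) and 0 fell, with 2 lower at an unadjusted p under 0.05. IMPACT did not pass with the replicate number as a block. EIF2AK4 (GCN2) differed by -0.14 ± 0.08 (adjusted p = 0.257). The share called was 12.5% for the 8 sensors and factors and 16.7% for these 6 genes, against 15.8% of all genes tested.

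Fallen genes were also found at other steps of the early secretory route. Of 21 tested genes of ER translocation and export 0 rose and 8 fell (0 higher and 11 lower at an unadjusted p under 0.05), with a median of -0.22 on the deposited values, -0.17 after quantile normalization and -0.18 after cyclic loess. After those normalizations 4 and 5 fell. On the deposited values the 8 calls were 38.1% of the list, against 15.8% of all genes tested. The lowest were SAR1A, the GTPase that starts COPII coats (-0.55 ± 0.08, adjusted p = 0.0161), and SEC11C, a signal peptidase subunit (-0.52 ± 0.11, adjusted p = 0.0380). Of 11 genes of ER-associated degradation 2 fell and 0 rose (0 higher and 4 lower at an unadjusted p under 0.05). These calls, 18.2% of the list, were near the 15.8% of all genes tested. The fallen ones were the channel protein DERL2 (-0.57 ± 0.09, adjusted p = 0.0165) and the lectin ERLEC1 (-0.37 ± 0.09, adjusted p = 0.0440). ERLEC1 did not pass after either normalization. DERL3, a relative of DERL2, overlapped between groups, at 6.04 and 5.39 after BRPF3 siRNA, against 5.53 and 5.50 after control siRNA (0.20 ± 0.21, adjusted p = 0.542). It passed as a rise without BRPF3 siRNA replicate 2, on 1 BRPF3 siRNA array (0.52, adjusted p = 0.0473).

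Falls among chaperones were not confined to the ER. Of 9 tested heat shock proteins and factors of the cytosol 4 fell and 1 rose (1 higher and 5 lower at an unadjusted p under 0.05). The median was -0.31 on the deposited values, -0.24 after quantile normalization and -0.23 after cyclic loess. After quantile normalization 3 fell and 1 rose, and after cyclic loess 4 fell and 1 rose. On the deposited values the calls were 55.6% of the list, against 15.8% of all genes tested. HSPH1 and HSPA4, cytosolic relatives of HYOU1 in the HSP110 family, fell by 0.53 ± 0.08 and 0.49 ± 0.08 on the log2 scale (differences -0.53 and -0.49, adjusted p = 0.0186 and 0.0198). HSPH1 read 10.83 and 10.94 after BRPF3 siRNA, against 11.39 and 11.44 after control siRNA. Both kept their call after either normalization, at -0.42 and -0.43 for HSPH1 and -0.38 and -0.39 for HSPA4. The near-identical genes HSPA1A (-0.48 ± 0.09) and HSPA1B (-0.47 ± 0.08) also fell, the share of each is uncertain, and HSPA1A did not pass after quantile normalization. HSPB8, a small heat shock protein, rose by 0.52 ± 0.09 (adjusted p = 0.0225). Of 6 mitochondrial chaperones and proteases HSPD1 fell (-0.36 ± 0.08, adjusted p = 0.0365) and 0 rose (0 higher and 3 lower at an unadjusted p under 0.05), and 0 fell after either normalization. At 16.7% called, this mitochondrial list lay near the 15.8% of all genes tested.

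**Figure D3:**
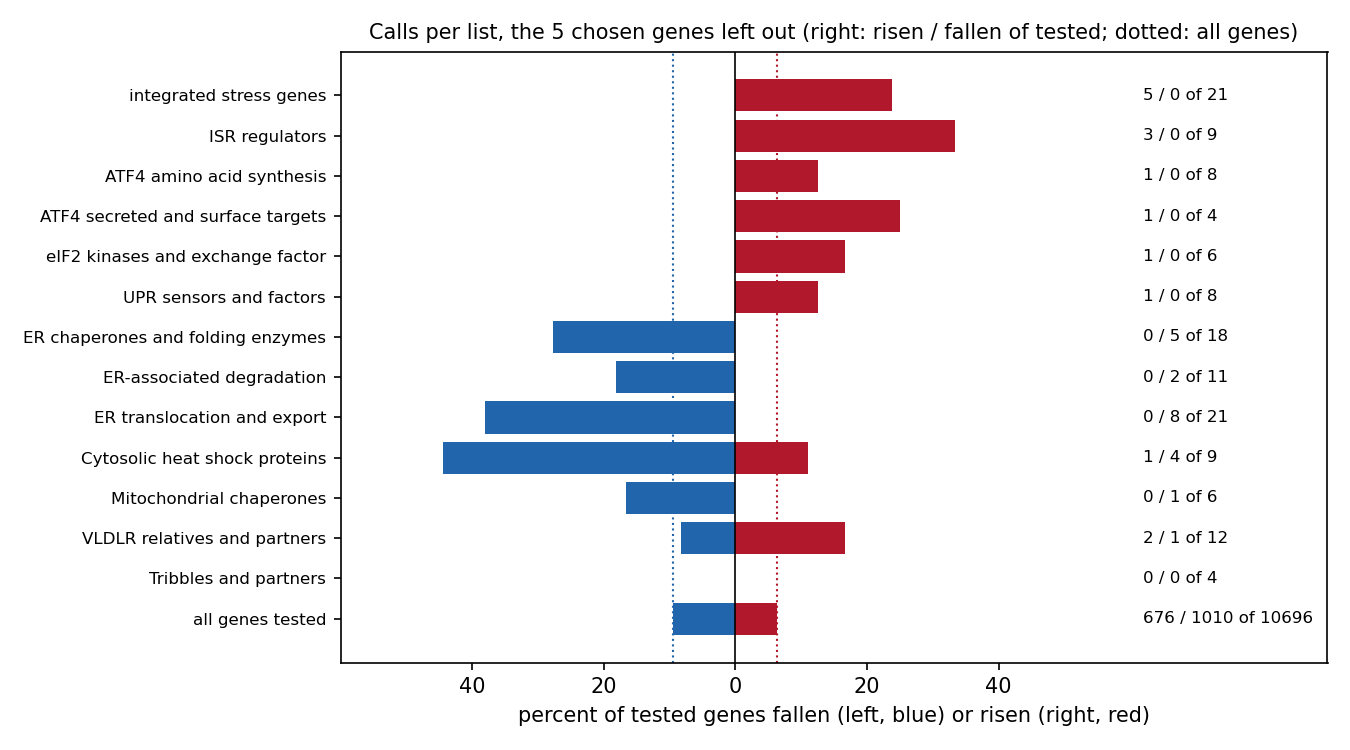
Share of the tested genes of each list that fell (blue, left) or rose (red, right) after BRPF3 siRNA, with the 5 chosen genes left out and the counts at the right; dotted lines mark the shares over all 10696 genes, 9.44% fallen and 6.32% risen. The integrated stress lists lie to the right and the chaperone and secretory lists mostly to the left.

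Relatives of VLDLR and TRIB3 did not share 1 direction. Of 12 other tested genes of receptors related to VLDLR and their partners 2 rose and 1 fell. At an unadjusted p under 0.05 in limma's test, 2 were higher and 1 lower. Over all genes tested 6.32% rose and 9.44% fell. LRP3 (0.47 ± 0.09, adjusted p = 0.0283) and LRP4 (0.39 ± 0.08, adjusted p = 0.0299) rose, while LRP12 fell by 0.43 ± 0.11 (difference -0.43, adjusted p = 0.0474) and did not pass after either normalization. LRPAP1, a chaperone of these receptors, differed by 0.12 ± 0.08 (adjusted p = 0.346). LRP8 was not analysed here, and DAB1, RELN and LRP2 lay under the intensity bound. TRIB1 differed by 0.35 ± 0.27 with overlapping groups (adjusted p = 0.419) and TRIB2 by -0.32 ± 0.11 (adjusted p = 0.0998). TRIB2 passed as a fall with the intensity trend (adjusted p = 0.0358) and with the 75th percentile filter (adjusted p = 0.0424).

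The median difference was not the same at all levels, and it did not change steadily with level. When the tested genes were ranked by mean level and divided into 4 groups of 2674, 165 rose and 369 fell in the brightest group, with means from 8.32 up and a median difference of -0.07. In the group with means from 5.69 to 6.92, 194 rose and 205 fell, with a median of 0.00099. In the dimmest group 109 rose and 142 fell (median -0.01). In the group with means from 6.93 to 8.32, 208 rose and 294 fell (median -0.05). After quantile normalization the medians of the 4 groups lay between -0.01 and 0.01. Of the 20 tested ER chaperones 10 were in the brightest group, HYOU1 among them, as were 10 of the 24 stress genes, PSAT1 among them. Over all genes the share of fallen genes among the changed ones was 59.9% on the deposited values, 48.4% after quantile normalization and 49.0% after cyclic loess. The median of the 21 stress genes other than the chosen ones was 0.28 and 0.27 after these normalizations, against 0.22 on the deposited values. Calls rested on both control arrays: without control replicate 1 or without control replicate 2, 0 of the 21 stress genes and of the 18 ER chaperones passed (limma; 2446 and 2477 of all genes had an unadjusted p under 0.05). Without BRPF3 siRNA replicate 1, ATF5, JDP2 and CBS lost their call, at 0.40, 0.66 and 0.47. FGF21 and SESN2 kept theirs. DDIT4 and GDF15 passed in that setting, as given above, and DDIT4 in no other. Without BRPF3 siRNA replicate 2, JDP2 lost its call, at 0.61, and ATF5, CBS, FGF21 and SESN2 kept theirs. Of the fallen ER chaperones FKBP7 and TMX3 kept their call without either BRPF3 siRNA array, and SEC63, ERP44 and TXNDC12 lost it. GDF15 also passed with the intensity trend.

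**Figure D4:**
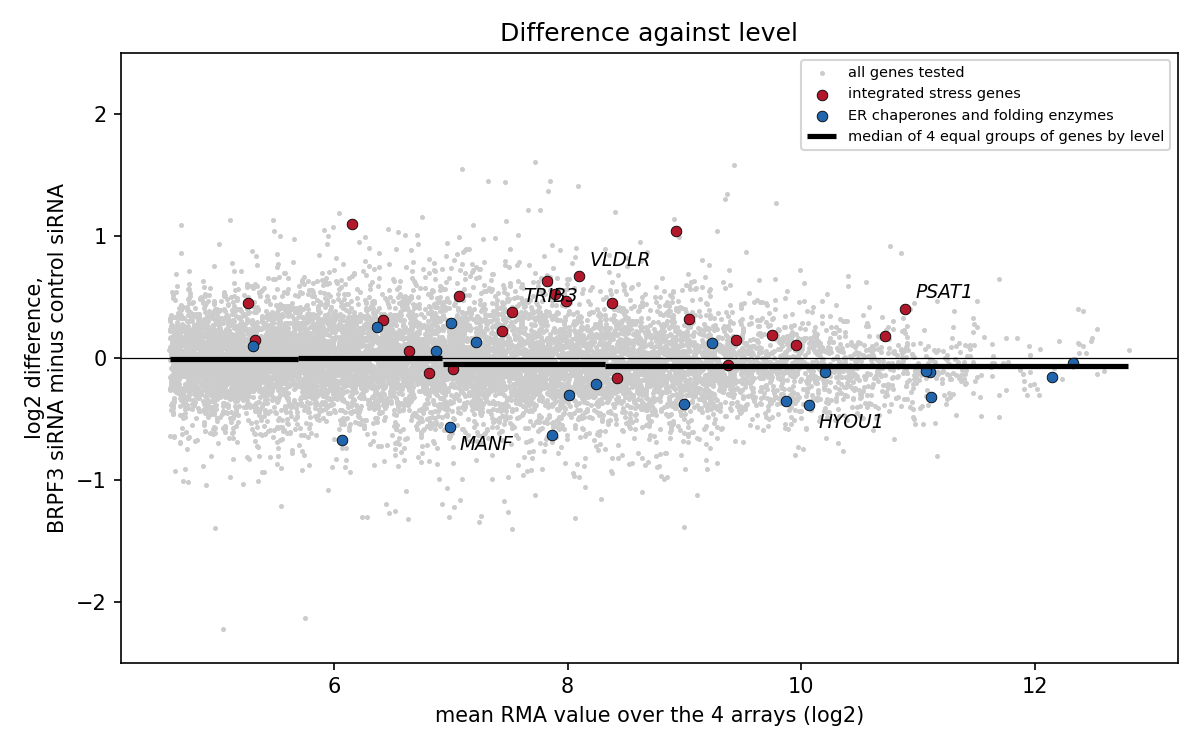
Log2 difference, BRPF3 siRNA minus control siRNA, against the mean RMA value over the 4 arrays for each of 10696 tested genes (grey), with the integrated stress genes in red, the ER chaperones and folding enzymes in blue and black bars at the medians of 4 equal groups of genes by level. The bar of the brightest group lies at -0.07, and the stress genes lie mostly above it and the ER chaperones on both sides of it.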

How the data were processed

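Total RNA of 4 cultures was labelled with the maker's WT PLUS chemistry and hybridised to Affymetrix whole-transcript arrays, 1 per sample. The authors deposited log2 values of 53617 probe sets, made with RMA per the submitters' processing notes; no source used here states its version or settings. The values were used as deposited. By the platform annotation 16098 probe sets have 1 gene symbol, 0 have several and the rest are unnamed here, and all 16098 identifiers matched the RefSeq table (GRCh38.p14), from which the promoter windows also come.

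Each of 14884 genes was represented by its probe set with the highest mean, and genes whose mean fell short of 4.59, the median over every probe set, were dropped. Groups were compared over all 10696 genes with limma 3.58.1 in R 4.3.3 (lmFit, eBayes, 2 residual and 3.81 prior degrees of freedom, Benjamini-Hochberg). With 2 arrays against 2 an exact permutation test cannot come near the threshold.

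Members, gene lists and tests were chosen with earlier results of these data known, and counts of passing stress genes and ER chaperones leave out the 5 chosen genes, although the lists hold them. Named were the 5 genes, all passing genes of both main lists, up to 2 passing genes in each direction of the other lists, 20 genes fixed by name (1 of them not reported here) and the 3 nearest profiles; CANX, SDF2L1, CRELD2, ERO1B, ERP29, DERL3, DDIT4, STC2, GDF15, VEGFA, SHMT2, MTHFD1L, ATF6, EIF2AK4, LRPAP1, HSPA1A, HSPA1B and the cell type markers were named after their values were seen. The study's design text places 1 array of each group in a replicate set, so the set number was used as a block in an alternative; deviations of same-numbered arrays from their group means correlated at 0.141 over genes.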

Additional observations from a re-analysis of the deposited data

How the results depend on the processing

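The alternatives were quantile and cyclic loess normalization, a fit blocked on the replicate number, eBayes with a trend on intensity, testing every named gene, testing those above the 75th percentile, averaging a gene's probe sets, and omitting single arrays. The 5 chosen genes kept their direction under all 11 settings. PSAT1 (0.40) moved to 0.52 with quantile and 0.50 with cyclic loess normalization, and HYOU1 (-0.39) to -0.30, -0.31 and, with the mean of its probe sets, -0.25. Over the settings without 1 array TRIB3 ran from 0.31 to 0.44, PSAT1 from 0.37 to 0.43, VLDLR from 0.54 to 0.80, MANF from -0.64 to -0.49 and HYOU1 from -0.41 to -0.36.

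The 1686 changed genes became 2645 with the trend and 409 without a filter. Among the listed genes other than the 5 chosen ones, the 5 risen stress genes became 10 with the trend and 2 without a filter, and 0 fell under any setting. The 5 fallen ER chaperones became 3 with quantile or cyclic loess normalization and 1 without a filter, and the count of risen ones, 0, became 1 with quantile, cyclic loess, the trend and the 75th percentile filter. In the paired analysis, with the replicate block, 1604 genes changed, 6 stress genes rose and 4 ER chaperones fell; the block ended 4 of the 31 calls among the other listed genes. Without 1 array the changed genes ran from 0 to 791, the risen stress genes from 0 to 4 and the fallen ER chaperones from 0 to 2. Each count was 0 once either control array was omitted (limma, without control 1 or 2; 2446 and 2477 genes at an unadjusted p under 0.05), where the fit takes the spread of the arm with 1 array from the arm with 2. A filter on fewer or more genes changes how many are tested; for the other settings the cause was not tested. Signal over background limits what was tested: genes under the intensity bound, such as CDNF, were tested only without the filter.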
